A study of Mus musculus with 24 samples.

Results

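Transcripts of 10 genes of JAK–STAT signalling were followed in aged mouse microglia and hippocampus. They are the transcription factors Stat3, Stat5b and Stat6, the Janus kinases Jak1, Jak2, Jak3 and Tyk2, and the feedback inhibitors Socs1, Socs2 and Socs3. They were taken by symbol from the 24411 genes listed in each of 3 deposited tables, and all 10 were listed. The list was drawn up with the normalized counts of these same libraries in view, so the values of the 10 genes are given as a description, with no p-value.

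The mice were C57/Bl6 males of 20 months, and each received 8 intravenous injections of 100 μl over 24 days. In the first experiment, microglia were isolated from the hippocampus after saline (n = 3; Saline-2, Saline-3 and Saline-4) or carrier-free recombinant mouse platelet factor 4 (PF4, a chemokine released by platelets) at 5 μg per ml (n = 4; PF4-1 to PF4-4). The hippocampi were dissociated with enzymes, myelin was removed with beads and the cells were captured on beads against CD11b, a surface protein that microglia share with other myeloid cells. In the second, the whole hippocampus was taken after saline (n = 5), the plasma preparation of 3-month-old donor mice (young plasma, n = 6) or the platelet fraction of that preparation (young platelet fraction, n = 6). The saline libraries of the second experiment served both treatments, and hippocampal mice are named by their number. No group received PF4 in whole hippocampus or a blood fraction in isolated microglia, so treatment and tissue cannot be told apart across the experiments.

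Cytokine receptors of this pathway have no kinase of their own. Each binds JAK kinases, which phosphorylate STAT proteins once a ligand is bound, and the STATs then enter the nucleus and switch on genes. SOCS genes are among those targets, and SOCS proteins bind the receptors or kinases and damp the signal. In microglia the pathway carries the response to interleukin-6 and interleukin-10 through STAT3 and to interleukin-4 through STAT6.

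One short sequence was looked for in the promoters of the set. The letters TTCNNNGAA, a symmetric arrangement that reads the same on both strands and that STAT dimers are known to bind, were searched in the RefSeq promoters of GRCm38.p6, each from 250 bases before to 50 after a gene start. Promoters were at hand for 9 of the 10 genes, all but Socs2, and Stat5b had 2. The Socs3 promoter alone held the letters. The stretch is shown because Socs3 is the gene with the largest difference in level between microglia and hippocampus. It lies on the minus strand at chr11:117969502-117969530, and the capitals mark the match, which begins 154 bases before the start used in the RefSeq promoter table. The GENCODE gene model of Socs3 extends further upstream, so the stretch lies within the span given for that model.
Socs3: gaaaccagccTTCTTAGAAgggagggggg
The same letters occurred in 8.30% of 32851 promoters. With a spacer longer by 1 base they occurred in 6.95% and in none of the promoters searched here. No binding was measured.

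The libraries differed in ways that touch these genes. The listed genes took 19855188 to 36342162 counted reads per microglia library and 6140510 to 10522699 per hippocampal library. All 12 microglia markers were present in every microglia library, and P2ry12 stood at a normalized count of 34694 to 51157. Transcripts of the choroid plexus, the tissue that secretes cerebrospinal fluid, summed to 275363 in Saline-2, 708273 in PF4-2 and 509548 in PF4-4, against 935 to 1855 in the other 4 microglia libraries. Oligodendrocyte markers summed to 197794 in PF4-4 and to 4273 to 34299 in the other 6. Other marker lists varied within both microglia groups too. Endothelial and mural markers summed to 9097 to 66602 with saline and 7773 to 57109 with PF4. Monocyte and neutrophil markers summed to 3286 to 6767 with saline and 743 to 14788 with PF4. In hippocampus, 5 libraries had scores of the less common sign on the first principal component, which held 25.2% of the variance. They are named as those that stood apart, by sign alone and with no rule on distance. They were mice 7146 and 7152 of the saline group, 7147 and 7150 of the plasma group and 7148 of the platelet group. Calls of the 10 genes that change without these libraries are given both ways.

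The first question was how the pathway genes differed between microglia of mice given PF4 and given saline. Stat3 was higher in all 4 PF4 libraries than in any saline library, Jak2 likewise at a far lower level, and Socs3 lay lower in 3 of the 4. Groups did not overlap for 4.62% of all genes tested. Jak2 passed the filter on low values, a normalized count of 10 in 3 libraries, only with its PF4 libraries. Its separation is therefore a description alone. At the call limit used for microglia, an unadjusted P of 0.01 in limma, 1 of the 10 genes was called, Stat3, beside 0.389% of the 11320 genes tested. Because the list was chosen on these values, nothing is read from that count. After Benjamini-Hochberg adjustment 0 genes of the whole table passed 0.05 with limma, against 391 at an unadjusted p under 0.05. On the recovered reads, edgeR called 34 genes at the unadjusted limit and DESeq2 179, and 41 genes passed 0.05 after adjustment in DESeq2.

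**Figure D1:**
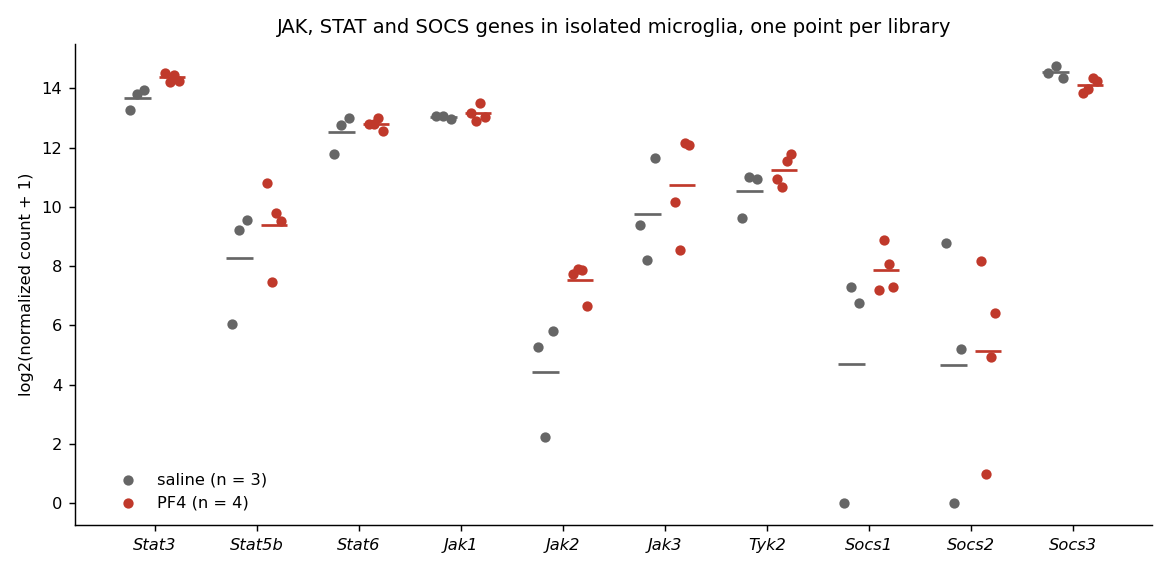
Each point is 1 microglia library (grey, saline, n = 3; red, PF4, n = 4), the vertical axis is log2(normalized count + 1) and the short bar is the group mean. Stat3 and Jak2 separate the groups with no overlap, whereas Stat5b, Jak3, Socs1 and Socs2 spread widely within both. Jak2 passed the filter on low values only with its PF4 libraries.

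Stat3, the STAT that relays signals of the interleukin-6 family, lies at chr11:100885098-100939540 on the minus strand (mm10). Its normalized count was 9878 in Saline-2, 14264 in Saline-3 and 15942 in Saline-4. It was 23661 in PF4-1, 19244 in PF4-2, 22627 in PF4-3 and 19654 in PF4-4. The lowest PF4 library was thus above the highest saline library. The means were 13361 ± 3132 (SD, n = 3) and 21297 ± 2181 (SD, n = 4), and the log2 difference was 0.70 (SE 0.20, 95% interval 0.26 to 1.14), a 1.62-fold difference. At least 7957 reads lay behind each value, so the counting error of reads was small beside the spread between libraries. The paper's methods amplified cDNA by PCR, so reads do not bound the error in sampling RNA molecules. In RNA from a cell population, more cells of a type and more RNA per cell cannot be told apart.

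The Stat3 call was not stable. It ended without Saline-2 (log2 difference 0.49), Saline-3 (0.76), PF4-1 (0.64), PF4-3 (0.66) or PF4-4 (0.73), and with edgeR (0.67). Without the 3 libraries high in choroid plexus transcripts it also ended (0.62), but the remaining saline libraries, at 14264 and 15942, stayed below the remaining PF4 libraries, at 23661 and 22627. Its direction was the same each time 1 library was left out, with differences of 0.49 to 0.84.

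Stat6, which relays interleukin-4 and interleukin-13, differed little. It stood at 3575, 7049 and 8267 in Saline-2, Saline-3 and Saline-4 and at 7060, 7143, 8265 and 6125 in PF4-1 to PF4-4. Saline-2 was the single low library and the groups overlapped. The log2 difference was 0.26 (SE 0.29), and without Saline-2 it was -0.10.

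Stat5b, which relays growth hormone and cytokines of the interleukin-2 family, was variable. Its normalized count was 65.8, 591 and 761 in Saline-2, Saline-3 and Saline-4, and 1812, 177, 891 and 734 in PF4-1 to PF4-4. Both groups held 1 library far below the others, and both of these were high in choroid plexus transcripts, but PF4-4, also high in them, was not low. The log2 difference was 1.12 with an SE of 1.03, and it was 0.015 without Saline-2. Stat5b shared 5.18% of its 100-base windows with Stat5a, its close paralog, and reads from those stretches could go to either gene.

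Among the kinases Jak1, the partner of most cytokine receptors of the family, varied least of the 10 between its lowest and highest library. It stood between 8030 and 8651 in saline and between 7727 and 11648 in PF4 microglia, and the groups overlapped. Its log2 difference was 0.12 (SE 0.19, 95% interval -0.31 to 0.54).

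Jak2, the kinase of the erythropoietin, growth hormone and interferon-gamma receptors, was near the bottom of the range. Its normalized count was 37.2 in Saline-2, 3.70 in Saline-3 and 55.0 in Saline-4, from 30, 3 and 77 reads. In PF4 microglia it was 212, 239, 235 and 99.5, from 278, 248, 288 and 105 reads. The groups did not overlap, as was also true of 4.62% of all genes tested. With Saline-3 under 10, Jak2 passed the filter only with its PF4 libraries. The means were 31.97 ± 26.0 (SD, n = 3) and 196 ± 65.8 (SD, n = 4). The log2 difference of 3.11 had an SE of 1.55 and a 95% interval of -0.34 to 6.57, and Jak2 was not called with limma, edgeR or DESeq2.

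Jak3, which pairs with the common gamma chain of the interleukin-2 receptor family, and Tyk2, which serves the type I interferon and interleukin-12 receptors, overlapped between groups. Jak3 was 667, 295 and 3227 in the saline libraries and 1147, 376, 4572 and 4365 in the PF4 libraries. Its spread within each group exceeded the difference of the means, and the log2 difference was 0.99 (SE 0.99). The gene spans of Jak3 and Insl3 share 1362 bases on the same strand. Of 3950 100-base windows of the longest Jak3 transcript, 0 occurred in other genes, and whether reads were split was not tested. Tyk2 was 798, 2054 and 1972 in saline and 1962, 1622, 2995 and 3559 in PF4 microglia, a log2 difference of 0.71 (SE 0.42) that was 0.26 without Saline-2 and 0.27 without all 3 libraries high in choroid plexus transcripts.

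Socs3, the inhibitor that docks on the gp130 receptor and damps STAT3, was the one gene of the 10 whose log2 difference with PF4 was negative. It lies at chr11:117966079-117970047 on the minus strand. Its normalized count was 23468, 27839 and 21021 in Saline-2, Saline-3 and Saline-4. It was 14661, 16378, 21184 and 19581 in PF4-1 to PF4-4, and only PF4-3 reached into the saline range. The means were 24109 ± 3454 (SD, n = 3) and 17951 ± 2967 (SD, n = 4), with a log2 difference of -0.43 (SE 0.18, 95% interval -0.84 to -0.02), and Socs3 was not called. Leaving out single libraries gave -0.525 to -0.322.

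The early response genes, which cells switch on within minutes of stimulation or tissue dissociation, are given beside Socs3. All 23 of the list were present, and together they took 3.44%, 4.44% and 4.21% of the normalized counts in Saline-2, Saline-3 and Saline-4. In PF4-1 to PF4-4 the share was 3.39%, 3.18%, 3.74% and 3.42%, and the groups overlapped. Of the 23, 17 had a lower mean log2 value with PF4, the median log2 difference was -0.18 against 0.03 over all genes tested, and 0 were called with limma or edgeR and 2 with DESeq2, with 2 at an unadjusted p under 0.05 in limma. Those were Fos at -0.35 and Nfkbia at -0.33 (limma adjusted p = 0.98 for each), named after their values were seen. Their part in the Socs3 values was not tested.

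**Figure D2:**
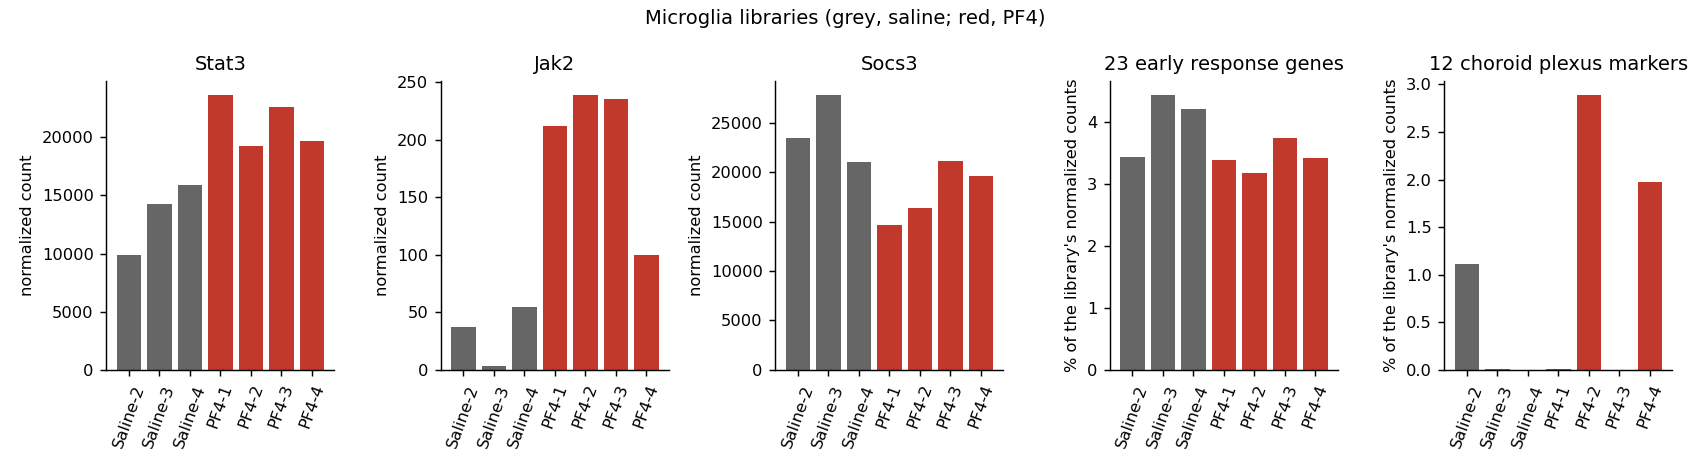
Bars give 1 microglia library each (grey, saline; red, PF4): the normalized counts of Stat3, Jak2 and Socs3, and the share of the library's normalized counts held by 23 early response genes and by 12 choroid plexus markers, in percent. Stat3 and Jak2 are higher in every red bar, Socs3 and the early response genes are mostly lower, and the choroid plexus markers stand out in Saline-2, PF4-2 and PF4-4. Jak2 passed the filter on low values only with its PF4 libraries.

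Socs1, which blocks JAK kinases downstream of interferons, and Socs2, which damps growth hormone signalling, were low and variable. Socs1 was 0, 157 and 108 in Saline-2, Saline-3 and Saline-4, and 146, 474, 267 and 155 in PF4-1 to PF4-4. The 0 allows up to 0.151 RPM (reads per 1000000 counted reads) in that library, by 3 reads of 19855188. The log2 difference of 3.17 (SE 1.93) rested on that library and was 0.83 (SE 1.08) without it and 0.60 without all 3 libraries high in choroid plexus transcripts. Socs2 was 443, 0 and 35.7 in saline and 286, 0.964, 29.4 and 84.3 in PF4 microglia, with no order between the groups (log2 difference 0.46, SE 2.598), and its mean normalized count was lower with PF4, at 100 ± 129 against 160 ± 246. Without Saline-3 its sign turned, to -1.88, as it also did with edgeR (-0.64).

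Across the 10 genes, 9 had a positive log2 difference with PF4 and the median was 0.70, whereas over all 11320 genes 5854 were positive and the median was 0.03. Saline-2 held the lowest value of the 7 libraries for 5 of the 10 genes, namely Stat3, Stat5b, Stat6, Tyk2 and Socs1. It was also the shallowest library and 1 of the 3 high in choroid plexus transcripts. Without it, 8 of the 10 differences were positive with a median of 0.38, and without all 3 such libraries 9 were, with a median of 0.61. Members of a list chosen on these libraries give no test of a common direction.

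**Figure D3:**
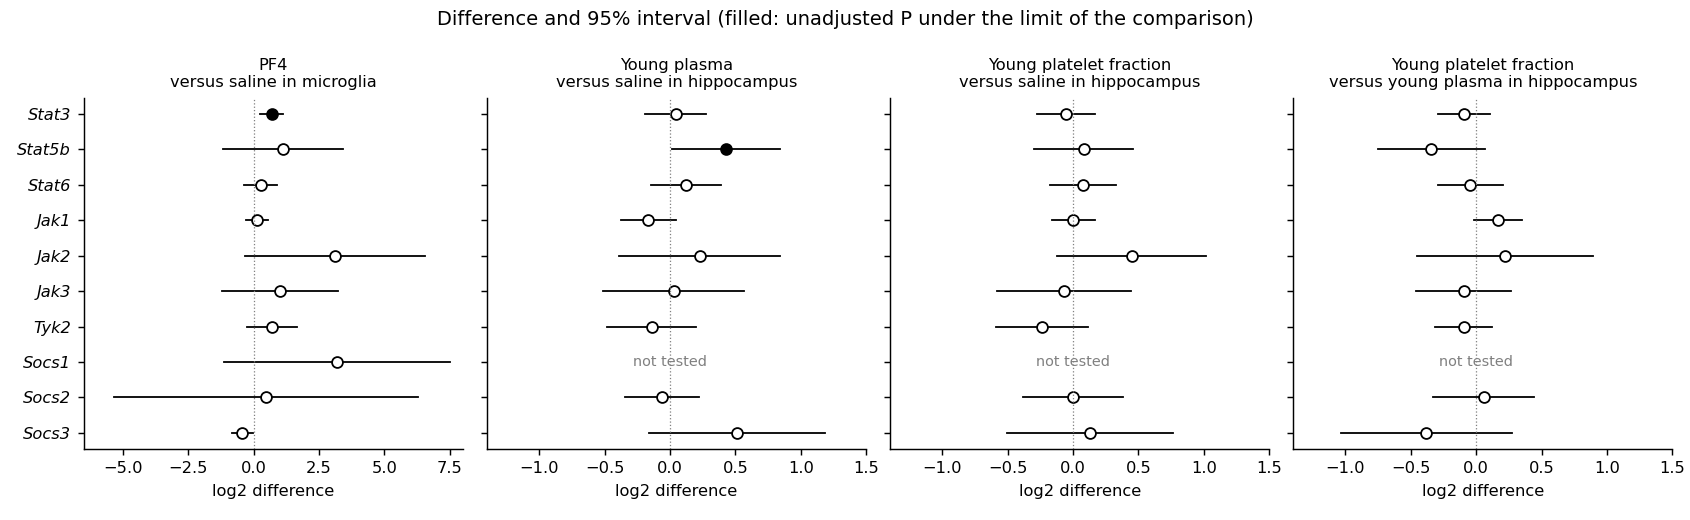
For each gene and comparison the point is the limma log2 difference (treated minus saline, or platelet fraction minus plasma) and the line its 95% interval; filled points passed the unadjusted limit. The microglia axis is wider than the hippocampal ones. The intervals of 8 of 10 genes spanned 0 in microglia and 8 of 9 after young plasma, with only Stat3 and Stat5b filled.

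The second question was how the same genes differed in whole hippocampus after young plasma or the young platelet fraction. The groups overlapped for every gene tested. Groups that did not overlap made up 0.191% of all genes in the plasma comparison, 0.257% in the platelet comparison and 0.0886% between the treatments. The most abundant of them, Jak1, was at 0.892 of its saline level after young plasma and Stat3 at 1.03 of it. Socs1 failed the filter on low values, so 9 genes were tested. At an unadjusted P of 0.05, the limit for hippocampus, 1 of the 9 was called after young plasma, Stat5b, beside 3.35% of 13594 genes, and 0 of 9 after the young platelet fraction, beside 3.87% of 13603 genes. The list was chosen with these values known, and nothing is read from these counts. With limma 0 genes passed adjustment in either comparison. With DESeq2 0 and 11 did. Both treatments were set against the same 5 saline libraries, so the comparisons are not independent.

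Stat5b was 64.2, 74.7, 59.9, 51.2 and 52.0 in saline mice 7143, 7146, 7152, 7155 and 7596. After young plasma it ran from 59.0 to 129 with a median of 78.4, and the highest value was in mouse 7156. After the young platelet fraction it ran from 51.6 to 93.0 with a median of 61.8, within the saline range but for mouse 7154. The means were 60.4 ± 9.71 (SD, n = 5), 83.1 ± 24.2 (SD, n = 6) and 64.7 ± 15.0 (SD, n = 6), and young plasma overlapped saline. The log2 difference from saline was 0.43 (SE 0.19, 95% interval 0.01 to 0.84) for young plasma and 0.08 (SE 0.18, 95% interval -0.30 to 0.46) for the young platelet fraction. The call ended without any 1 of saline mice 7143, 7152, 7155 or 7596 or plasma mice 7144, 7156, 7159 or 7594, with differences of 0.29 to 0.45. Without the 5 libraries that stood apart it was kept, at 0.69.

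The platelet fraction and plasma were compared with each other over the 12 treated mice. Stat5b differed by -0.34 (SE 0.19) and was not called, as was true of all 9 genes tested, beside 1.87% of 13547 genes called. It was called without plasma mouse 7150 (-0.43) or platelet mouse 7154 (-0.45). A call in one treatment and not in the other is therefore not a difference between them by this test.

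Stat3 was 722, 614, 860, 686 and 620 in the saline mice. It ran from 636 to 850 with a median of 686 after young plasma, and from 595 to 748 with a median of 681 after the young platelet fraction. The 3 groups covered one range. The log2 differences from saline were 0.04 (SE 0.11, 95% interval -0.19 to 0.28) and -0.05 (SE 0.10, 95% interval -0.27 to 0.17). These intervals are of whole tissue, in which microglia are only a part, so they cannot show whether Stat3 differed within microglia. Treatment and cell population also both differed between the experiments.

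Stat6 was 205, 165, 152, 171 and 196 in the saline mice, 161 to 226 with a median of 197 after young plasma, and 161 to 216 with a median of 191 after the young platelet fraction. The groups overlapped widely. Its log2 differences were 0.12 (SE 0.12) and 0.08 (SE 0.12), and without the libraries that stood apart they were 0.00 and -0.07.

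Jak1 was 1848, 1915, 1687, 2159 and 1896 in the saline mice. After young plasma it ran from 1422 to 2030 with a median of 1686, and after the young platelet fraction from 1764 to 2072 with a median of 1902. Of the plasma mice, 3 lay below the lowest saline mouse and none above the highest. The log2 differences were -0.16 (SE 0.10, 95% interval -0.38 to 0.05) after plasma and 0.00 (SE 0.08) after the platelet fraction. The platelet fraction was 0.17 (SE 0.09) above plasma. Without plasma mouse 7594, the highest, Jak1 was called against saline (-0.22) and between the treatments (0.22).

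Jak2 was low, at 22.0, 31.8, 22.9, 21.1 and 26.6 in the saline mice from 19 to 46 reads. It ran from 18.0 to 49.8 after young plasma and from 20.5 to 53.1 after the young platelet fraction. The highest saline mouse was exceeded by 2 plasma mice, 7156 and 7594, and by 3 platelet mice, 7145, 7154 and 7157, and the medians were 26.1 and 35.2. The log2 difference was 0.23 (SE 0.29) after plasma and 0.45 (SE 0.27) after the platelet fraction. The latter was called without platelet mouse 7148 (0.59) and without all libraries that stood apart (0.67).

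Tyk2 was 316, 154, 218, 196 and 255 in the saline mice, a wider range than in either treated group. It ran from 175 to 221 after young plasma and from 156 to 221 after the young platelet fraction, with log2 differences of -0.14 (SE 0.16) and -0.24 (SE 0.16). The latter was called without saline mouse 7146 (-0.37) or without the libraries that stood apart (-0.37). The span of an antisense gene, 1700084C06Rik, overlaps that of Tyk2 over 24326 bases. Of 4729 100-base windows of the longest Tyk2 transcript, 0 occurred in other genes. Jak3 was 122, 42.2, 80.2, 61.2 and 54.4 in saline and between 49.0 and 82.0 in all treated mice. Its log2 differences were 0.03 (SE 0.25) and -0.07 (SE 0.24), and both changed sign when single mice were left out.

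Socs3 was close to the filter in hippocampus, at 19.5, 13.8, 11.5, 21.1 and 25.4 in the saline mice from 13 to 24 reads. After young plasma it ran from 16.4 to 49.96 with a median of 24.8, and after the young platelet fraction from 12.9 to 33.7 with a median of 18.1. The 2 highest values of all, in plasma mouse 7147 and platelet mouse 7148, came from libraries that stood apart. The log2 differences were 0.51 (SE 0.31) and 0.13 (SE 0.29), and without those libraries 0.03 and -0.33.

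Socs2, by contrast with microglia, was readily measured in hippocampus. It was 208, 195, 167, 186 and 210 in the saline mice, 155 to 229 after young plasma and 121 to 259 after the young platelet fraction. The treated groups spread wider than saline and the log2 differences were -0.06 (SE 0.13) and -0.002 (SE 0.18). Socs1 rested on 0 to 12 reads per mouse and ran from 0 to 10.9 over all 17, too few to compare.

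**Figure D4:**
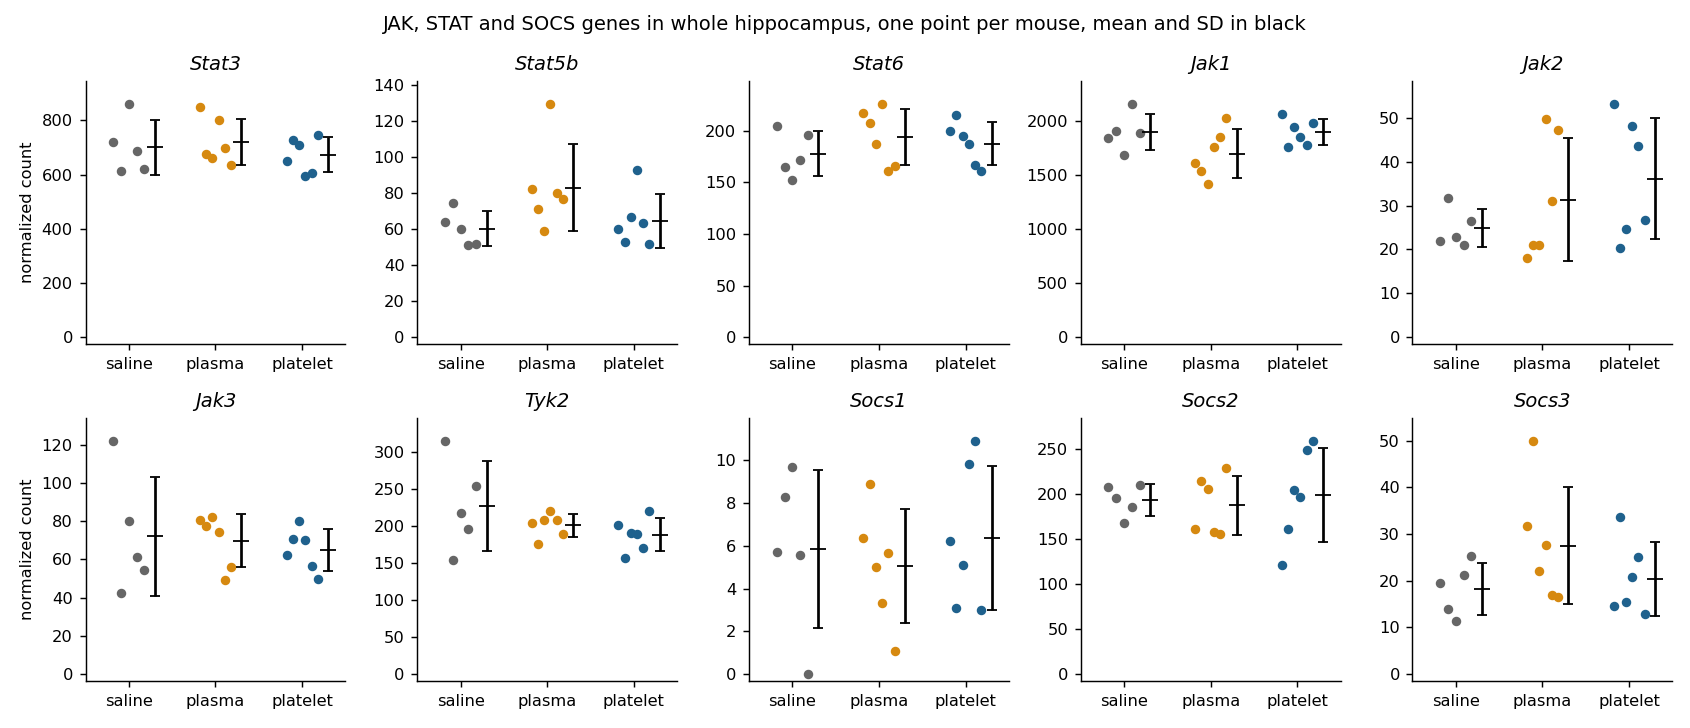
Normalized counts of the 10 genes in whole hippocampus, 1 point per mouse (saline, n = 5; young plasma, n = 6; young platelet fraction, n = 6), with the mean and SD in black. The groups overlap in every panel, and 1 plasma mouse stands above the others for Stat5b, at 129.

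The levels were then set side by side between microglia and whole hippocampus, in RPM, without a test, because tissue and experiment cannot be told apart. Socs3 stood out. Its saline median was 952 RPM in microglia and 2.66 in hippocampus, a ratio of 358. Stat6 was 11.4 times higher in microglia and Stat3 5.78 times, at 549 against 95.04, and none of these ranges overlapped. Jak1 was nearer to even at a ratio of 1.303, though its ranges did not overlap either. Socs2 went the other way, at 1.376 in microglia against 26.8 in hippocampus, as did Jak2, at 1.51 against 3.01. The other 4 genes, Stat5b, Jak3, Tyk2 and Socs1, had overlapping ranges.

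The order of levels per kilobase of exon also differed. In microglia the medians over 7 libraries, in RPM per kilobase, ran from Socs3 (280) through Stat3 (79.9), Stat6 (66.3), Jak1 (46.1), Tyk2 (11.5), Jak3 (8.90), Stat5b (5.13), Socs1 (2.08) and Jak2 (0.77) to Socs2 (0.14). Only 2 steps in that order cleared the spread between libraries, that from Socs3 to Stat3 and that from Jak1 to Tyk2. In hippocampus the order over 17 libraries was Jak1 (34.8), Stat3 (9.98), Stat6 (5.74), Tyk2 (4.04), Socs2 (2.81), Jak3 (1.76), Stat5b (1.58), Socs3 (0.97), Jak2 (0.71) and Socs1 (0.27). There too only 2 steps cleared it, from Jak1 to Stat3 and from Stat3 to Stat6. With the longest transcript as length, Socs2 passed Tyk2 in hippocampus and no other place changed.

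**Figure D5:**
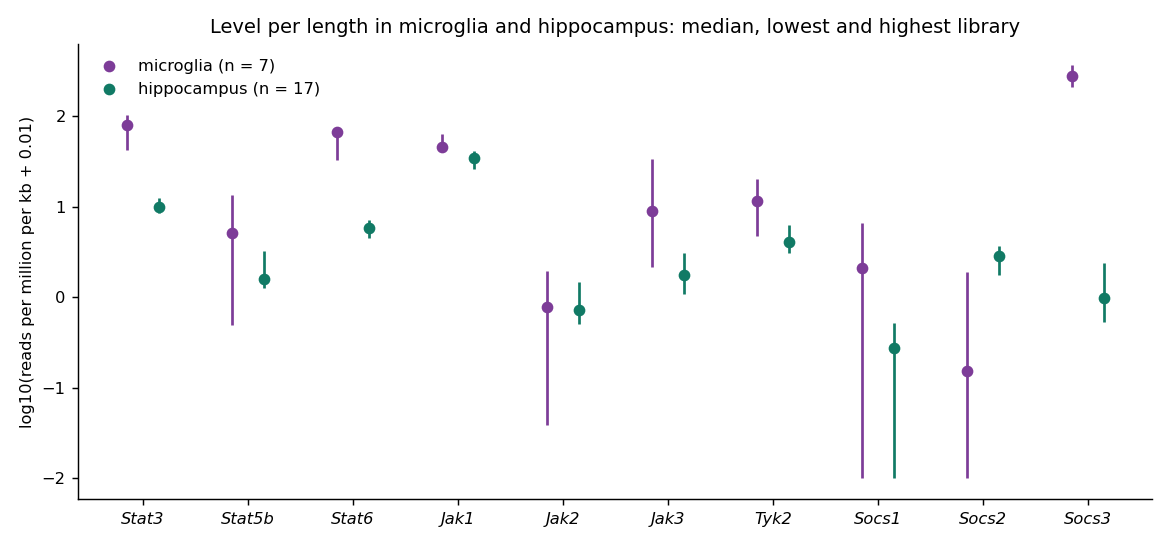
Level per length of the 10 genes in microglia (purple, n = 7) and whole hippocampus (green, n = 17) on a log10 axis of RPM per kilobase plus 0.01; points are medians and lines run from the lowest to the highest library. Socs3 tops the microglia and is near the bottom of the hippocampus, and Socs2 is at the bottom of the microglia and in the middle of the hippocampus.

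The 23 early response genes took 3.18% to 4.44% of each microglia library and 0.0802% to 0.105% of each hippocampal library. Their part in the Socs3 level was not tested.

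Genes whose values followed Stat3 and Socs3 from library to library were sought after removal of group means. In microglia, over 7 libraries and 11016 genes, those most like Stat3 included Gal3st4 and Gpr146 (Pearson r = 0.99 each), and those most like Socs3 were Spi1 (0.99), Gsto1 (0.97) and Cd244 (0.97). Among the 10, Stat3 ran closest to Stat6 (0.92) and Stat5b (0.91), and its r with Socs3 was -0.12. In hippocampus, over 17 libraries and 10628 genes, Rasa3 (0.76), Cnnm3 (0.74) and Wipi1 (0.72) were most like Stat3, and Socs3 was too low to rank. The libraries differed in depth and tissue make-up, which touches all genes of a library at once. Picked as the highest of 11016 genes over 7 libraries, the microglia values are high by selection, so the names are a description. Stat3, Stat5b and Stat6 were each lowest in Saline-2.

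The rest of the pathway was read from lists of other family members, regulators, receptors, ligands and target genes, 144 genes in all. In microglia 104 were tested, 50 had a positive difference and 0 were called with limma, edgeR or DESeq2, beside 0.389% of all genes. At an unadjusted p under 0.05 there were 2, the granulocyte colony-stimulating factor receptor Csf3r (log2 difference -0.67, SE 0.24) and the interferon-induced guanylate-binding protein gene Gbp7 (0.91, SE 0.34), each with a limma adjusted p of 0.98 and named after the values were seen. The list of STAT3 target genes had a median difference of -0.03 over 19 genes, 9 of them positive, against 0.03 over all genes.

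No further family member was called in microglia with limma. Stat2, which serves type I interferon signalling, was 1196 ± 773 (SD, n = 3) with saline and 948 ± 699 (SD, n = 4) with PF4, and Stat5a 212 ± 284 and 447 ± 243. Socs6, at 1385 ± 526.2 and 918 ± 265, and Socs7, at 603 ± 427 and 318 ± 131, had lower means with PF4, whereas Socs4 (59.2 ± 59.0 and 118 ± 86.6), Socs5 (302 ± 282 and 438 ± 391) and Cish (135 ± 189 and 303 ± 238) had higher ones. All overlapped, and Stat4 was below the filter.

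In hippocampus 87 pathway genes were tested. After young plasma 4 passed the unadjusted limit as higher and 3 as lower, 8.05% against 3.35% of all genes, all with a limma adjusted p of 1.00. Without the libraries that stood apart 2 were called, Epor and Vim, beside 2.28% of all genes, and without mouse 7146 alone 2 were called. After the young platelet fraction 3 were higher and 0 lower, 3.45% against 3.87% of all genes, again with an adjusted p of 1.00.

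Vim, which encodes the intermediate filament vimentin of astrocytes and vessels and is a STAT3 target, was among those higher in both. It ran from 152 to 203 in saline, 194 to 287 after young plasma and 196 to 268 after the young platelet fraction. The log2 differences were 0.33 (SE 0.12) and 0.39 (SE 0.11), against the same saline mice. The plasma call ended without saline mouse 7596 (0.27), and no other library left out singly ended either call. Of the other STAT3 targets tested, 13, none passed the limit.

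Interferon-induced genes had a positive difference after young plasma in 11 of 13 tested, with a median log2 difference of 0.30 against -0.01 over all genes, and 3 passed. Over all genes 6432 of 13594 were positive and 3.35% passed. Values of the 13 genes come from the same mice, so these counts are no test of a common direction. The 3 that passed were Ifit3 (161 ± 29.9 with saline, 243 ± 81.4 with plasma), Irf7 (36.9 ± 8.89 and 62.8 ± 24.9) and Ifit1 (41.8 ± 12.9 and 70.02 ± 33.2; SD, n = 5 and n = 6). After the young platelet fraction 10 of 13 were positive with a median of 0.14, and Ifit3 alone passed (0.50, SE 0.16). Over all genes 6873 of 13603 were positive and 3.87% passed. The plasma difference of Ifit3 was 0.55 (SE 0.21), and it ended as a call without saline mouse 7146 (0.45). Without the libraries that stood apart Ifit3, Irf7 and Ifit1 were at 0.28, 0.37 and 0.52 after plasma, none of them called, and Ifit3 was still called after the platelet fraction. The difference between the treatments had a median of -0.24 over these genes, and 0 were called with limma.

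Of the receptor genes, 3 passed the unadjusted limit as lower after young plasma, beside 3.35% of all genes called. They came 1 each from lists with 7, 7 and 6 genes tested. The list of interferon, interleukin-10 and interleukin-12 receptors had 0 called of 7. Lifr, the receptor of leukaemia inhibitory factor, was 782 ± 94.9 in saline and 669 ± 70.7 after plasma (log2 difference -0.22, SE 0.10). It was 781 ± 99.3 after the platelet fraction, 0.22 (SE 0.10) above plasma and the single pathway gene called between the treatments. Epor, the erythropoietin receptor, was 122 ± 22.4 and 90.6 ± 22.3 (-0.44, SE 0.19), and Il21r 29.5 ± 8.66 and 18.6 ± 8.41 (-0.70, SE 0.32). Among ligands, Cntf, a cytokine of the gp130 family, was 8.79 ± 2.35 in saline and 17.3 ± 7.31 after the platelet fraction (0.83, SE 0.33; SD, n = 5 and n = 6). Its saline mean was under the filter value of 10, and it passed the filter only with its platelet libraries. Only 3 of the 29 listed ligands were tested, so its difference is a description alone. The calls of Lifr, Epor, Il21r, Irf7, Ifit1 and Cntf each ended when single libraries were left out. Without the libraries that stood apart Lifr was at -0.12 after plasma and 0.16 between the treatments, Il21r at -0.82 and Cntf at 0.73, none of them called.

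The further family members Stat2, Stat5a, Socs4, Socs5, Socs6, Socs7 and Cish passed no limit in hippocampus. Over saline, plasma and platelet mice in that order, Stat2 (176, 173 and 178), Socs5 (257, 245 and 244), Socs6 (76.3, 78.4 and 76.5), Socs7 (421, 390 and 399) and Cish (52.0, 50.8 and 52.3) had group means that differed by less than the SD within any group. Stat5a (16.7, 20.9 and 18.2) and Socs4 (16.8, 28.4 and 21.6) were near the filter.

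The early response list was kept apart from the pathway lists, though it shares Junb with the STAT3 targets. It had 1 gene higher (Dusp1) and 1 lower (Egr3) of 20 tested after young plasma, and 1 higher (Klf6) of 19 after the platelet fraction. Egr3 (-0.37) and Klf6 (0.13) were not called without the libraries that stood apart. Its sum overlapped between the groups, from 5939 to 7959 in saline, 5872 to 7363 after plasma and 5935 to 6928 after the platelet fraction. Choroid plexus transcripts varied within each group too, from 3500 to 59849, from 7546 to 88274 and from 6499 to 98019, and their part in the hippocampal values was not tested.

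By position, 3 of the 10 genes are on chromosome 11. Stat5b (chr11:100780731-100850724) and Stat3 are 34373 bases apart with Stat5a between them, and Stat3 overlaps Stat5a by 72 bases on the other strand. Their reads were assigned by the authors and were not reassigned here. The other genes lie at chr10:127642986-127660957 (Stat6), chr4:101152367-101265282 (Jak1), chr19:29251828-29313080 (Jak2), chr8:71676296-71690575 (Jak3), chr9:21104068-21131243 (Tyk2), chr16:10782240-10785536 (Socs1) and chr10:95385362-95417180 (Socs2), all in mm10.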

How the data were processed

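Libraries were 7 of isolated microglia and 17 of whole hippocampus, in 3 tables. The authors aligned reads with STAR to mm10, quantified genes with RSEM and deposited normalized counts, a depth-scaled signal from DESeq2. The labels and the methods name different library preparation kits, so strand was not relied on and overlapping or antisense genes are marked as uncertain. Fold changes and p-values of the authors' own comparisons, also in the tables, were not used.

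Dividing each value by the worth of 1 read gave whole reads for 100% of values within 0.01 of a read. The 5 hippocampal saline libraries had identical reads in the tables of both treatments and were counted once. Levels in hippocampus were put on one scale by dividing the platelet table by 1.0049, and each comparison with saline was fitted within its own table.

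The main test was limma 3.58.1 (R 4.3.3) with a mean-variance trend on log2(normalized count + 1), two-sided. Differences of low genes depend on the added count and on single libraries with few reads. For Socs1 in microglia the fitted fold was 9.02, with group means of 88.2 and 261. Genes needed a normalized count of 10 in 3 microglia libraries, 5 libraries against saline or 6 between treatments. A call is an unadjusted P under 0.01 in microglia and under 0.05 in hippocampus, and Benjamini-Hochberg adjusted p under 0.05 is given beside it. Scripts were tested on simulated data. edgeR 4.0.16, DESeq2 1.42.0, other pseudocounts, filters and scalings, and leaving out each library were alternatives. Leaving out the libraries that stood apart, and fitting the 6 microglia libraries that share numbers without a block, were chosen after seeing the data.

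The 10 genes and the lists were chosen with earlier results of these data known. Named besides the 10 were the listed family members, up to 4 called genes per pathway list and comparison with the smallest p, and the 3 genes most correlated with Stat3 and Socs3 after removal of group means. Some results of these rules are not reported here. The paper counts the microglia groups as 3 saline and 4 PF4 mice, as many as the libraries. Limits for 0 reads cover counting error only.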

Additional observations from a re-analysis of the deposited data

Results flagged for a closer look

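Of 40 groups of the 10 genes examined for a sample far from the others, 2 held one, and chance gives about 1 in 20 groups. Jak2 in PF4-4 was at a normalized count of 99.5, far below the other 3 PF4 libraries, with a gap of 0.86 of the group's range on the log2(normalized count + 1) scale against a critical value of 0.829. Socs1 in saline mouse 7596 was at 0 in whole hippocampus, with a gap of 0.794 of the range on that scale against 0.71. On the normalized counts themselves the gaps were 0.803 and 0.574, under the critical values. That library was the shallowest of the hippocampus, and 0 reads there allow up to 0.489 RPM.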

How the results depend on the processing

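Over 1690 single-gene values under alternatives, a call was lost 94 times and gained 9 times, and 0 called values reversed. The 44 genes called in microglia became 179 with DESeq2 and 9 without the libraries that stood apart, and ran from 22 (without PF4-4) to 123 (without Saline-4) when single libraries were left out. The 1 called gene of the 10 became 0 with edgeR, with the 6 libraries that share numbers and without the libraries that stood apart, and 0 to 1 by leaving out libraries, while the 0 pathway genes became 1 without the libraries that stood apart and 0 to 1. After young plasma 456 genes became 300 without the libraries that stood apart and 297 to 617 by leaving out libraries, the 1 of the 10 became 0 to 1, and the 7 pathway genes became 4 with a filter at 50, 2 without the libraries that stood apart and 2 to 7. After the platelet fraction 527 became 344 to 870, the 0 of the 10 became 2 without the libraries that stood apart and 0 to 1, and the 3 pathway genes became 10 with no filter and 2 to 7. Between the treatments 254 became 474 with no filter and 203 to 438, the 0 of the 10 became 0 to 1, and the 1 pathway gene became 5 with no filter, 0 with TMM scaling, 0 with library totals, 2 with edgeR, 2 with DESeq2, 0 without the libraries that stood apart and 0 to 4. The cause of these changes was not tested. Whether shared replicate numbers pair the microglia libraries cannot be told from 3 pairs. Same-numbered deviations correlated at 0.174, 0.061 and 0.002. Saline-2 and Saline-3 correlated best with the PF4 library of their own number (next best -0.018 and 0.019), whereas Saline-4 correlated best with PF4-3 (0.168). With the replicate block, 31 genes were called against 46 in the same 6 libraries without it, and Stat3 (0.64) was called. Reads were few for Jak2 in saline microglia and for Socs1, Socs3 and Jak2 in hippocampus, and the 3 saline microglia libraries limit every microglia value.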
